A study of Mus musculus with 8 samples.

Results

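DMRT6 ChIP peaks that lie inside genes a short way past or before a gene start are described here. A peak was taken by position alone: its middle had to lie inside the body of any gene of the study's expression table, more than 1 kb and at most 10 kb from the nearest gene 5′ end. The rule took 1841 of 14862 peaks, or 12.4% (95% interval 11.9 to 12.9%). They were called on wild-type adult testis, strain background C57BL/6, Mixed, from 1 library of chromatin immunoprecipitated (ChIP) for DMRT6 and 1 input library. The antibody, polyclonal and from rabbit, was raised against glutathione-S-transferase fused to the C-terminal part of DMRT6. RNA came from whole testes at postnatal day 8 (P8) with the strain background C57BL/6, in 3 wild-type and 3 Dmrt6 null libraries, which the design text calls biological replicates. The sources used here give neither the structure of the null allele nor whether animals were pooled. Dmrt6 is listed in the expression table as Dmrtb1, and that symbol is used below.

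DMRT6 belongs to the DM domain family of transcription factors, zinc-binding proteins that contact DNA and are best known for roles in sex determination and the gonad. It is made in spermatogonia that have begun to differentiate, the mitotic germ cells that later enter meiosis. A ChIP peak is a stretch of the genome that was recovered more often with the antibody than in the input. Binding sites of a transcription factor commonly lie at gene starts, in introns and between genes, and a peak does not by itself say which gene, if any, it regulates.

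Adult testis holds meiotic and postmeiotic germ cells that a P8 testis largely lacks, so binding and expression were read at different stages. With 1 ChIP and 1 input library, no peak has a replicate check, and the read depth behind each peak is unknown. The peak score is the authors' own value and its scale is not stated, so it was used to describe and rank peaks within the list. The RNA libraries held 23.8 to 29.0 M reads in genes. Of the listed germ cell, Sertoli, Leydig, peritubular, endothelial, macrophage and red blood cell genes, 0 had no read in all 6 libraries. Any read in any library meets this, so the count does not check the testis label. In bulk RNA, fewer cells of a type and less RNA per cell cannot be told apart.

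Of the genes described below, Dmrtb1 and Zfp113 each had a peak at the gene start as well as one further inside the gene. The start windows of both are shown because a peak of each lies at them, and because Dmrtb1 is the gene targeted in the null and Zfp113 holds the highest score. The peaks are placed in the mm9 build, whose sequence was not used here, so their own letters are not shown. Each window runs from 250 bases before to 50 bases after the RefSeq start (build GRCm38.p6), on the gene's strand. The Dmrtb1 window is chr4:107684181-107684480 and the Zfp113 window chr5:138155695-138155994, both on the minus strand. Capitals would mark the letters ACANTGT, a core that DM domain proteins are known to favour.
Dmrtb1: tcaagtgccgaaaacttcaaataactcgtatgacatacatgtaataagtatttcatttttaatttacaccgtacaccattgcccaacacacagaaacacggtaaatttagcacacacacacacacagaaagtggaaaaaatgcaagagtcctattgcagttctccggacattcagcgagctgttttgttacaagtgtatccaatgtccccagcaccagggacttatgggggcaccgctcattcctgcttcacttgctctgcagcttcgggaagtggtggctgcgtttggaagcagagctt
Zfp113: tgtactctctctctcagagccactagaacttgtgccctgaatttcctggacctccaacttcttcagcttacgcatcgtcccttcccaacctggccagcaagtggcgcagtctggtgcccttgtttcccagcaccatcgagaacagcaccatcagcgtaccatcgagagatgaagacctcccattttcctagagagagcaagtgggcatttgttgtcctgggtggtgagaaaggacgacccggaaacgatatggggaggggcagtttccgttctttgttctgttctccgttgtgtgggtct
Neither window holds ACANTGT, which reads as the same pattern on both strands. Of 27025 RefSeq start windows of this length, 7.59% held it. Among genes nearest to an intragenic peak it was in 37 of 1075 windows, or 3.44%, and among all table genes with a window in 4.42%. Where those nearest genes also had a peak at the start, it was in 2 of 195, or 1.03%. Over all genes with a peak at the start the share was 4.4%. These shares describe the letters in a window and not binding, and the RefSeq start may differ from the 5′ end in the expression table.

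Peaks were densest just past the 1 kb bound and thinned with distance. Per Mb of gene body lying at that distance from the nearest 5′ end, there were 16.4 peaks between 1 and 2 kb (95% Poisson interval 14.8 to 18.1; 378 peaks in 23.1 Mb) and 13.2 between 2 and 3 kb. From 3 to 10 kb the bins lay between 7.19 and 9.7 peaks per Mb, with no steady fall among them. The 1 to 2 kb bin held 2.01 times the density of the 9 to 10 kb bin (1.65 to 2.47). The intervals of density cover counting error in this 1 library.

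**Figure D1:**
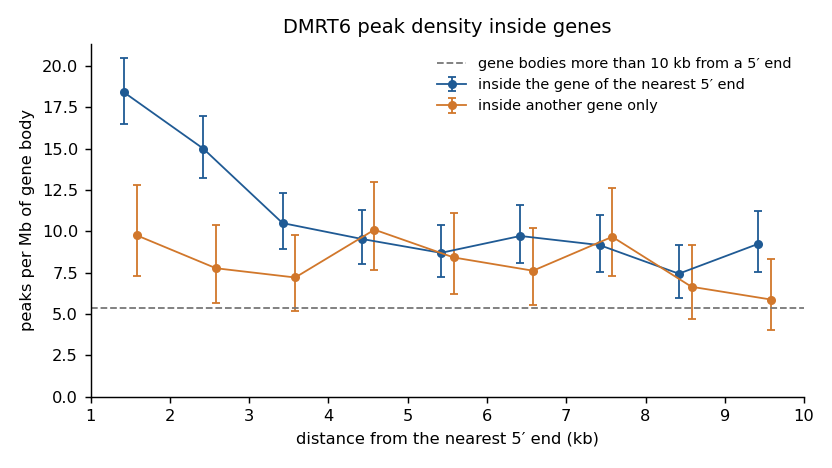
Peaks per Mb of gene body against distance in kb from the nearest gene 5′ end, in 1 kb bins with 95% Poisson intervals as bars, for peaks inside the gene of that 5′ end and for peaks inside another gene only; the dashed line is gene body beyond 10 kb, 5.39 per Mb. In the first bin the gene of the nearest start holds 18.4 per Mb and another gene 9.76, and from 3 kb on the intervals of both overlap.

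The band as a whole stood between the gene start and the deep gene body. Its density was 10.4 peaks per Mb (9.9 to 10.9) over 178 Mb. Inside genes within 1 kb of a 5′ end the density was 58.5 per Mb, and more than 10 kb inside it was 5.39 per Mb (5.23 to 5.56). The band thus held 1.92 times the density of the deep gene body (1.82 to 2.03). Its outermost bin, at 9 to 10 kb, was still 1.51 times the deep gene body (1.26 to 1.79). Deep gene body at 10 to 50 kb held 6.87 peaks per Mb and beyond 50 kb 4.09.

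Density near the start was higher in the gene that owns the start than in other genes. Of the 1841 peaks, 1426 (77.5%) lay in that gene and 415 (22.5%) lay in some other gene. Peaks in the own gene numbered 18.4 per Mb at 1 to 2 kb (16.5 to 20.5) and 9.24 at 9 to 10 kb. Peaks in another gene numbered 9.76 per Mb at 1 to 2 kb (7.31 to 12.8) and 5.88 at 9 to 10 kb. Over the whole band the own gene held 11.3 per Mb and another gene 8.13, a ratio of 1.39 (1.24 to 1.55).

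Of the peaks, 1530 (83.1%) were downstream of the nearest start and 311 (16.9%) upstream of it. The rule shapes this split, since an upstream position counts only where another gene covers it. The upstream peaks sat in a neighbouring gene, which was on the opposite strand for 189 and on the same strand for 117. Peaks past the far end of the nearest gene numbered 73 in an opposite-strand host and 29 in a same-strand host. A single gene body held the middle of 1760 peaks, 2 gene bodies held 75 and 3 held 6. The median distance to the nearest start was 4228 bp (quartiles 2284 and 6834). In its own gene, a peak lay a median of 12.8% of the way along (quartiles 5.24 and 29.4%).

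Taken per gene, those that held a peak nearest to their own start had a median length of 28788 bp. The median over all genes of the table was 14564 bp. A long gene has more body in the band, so gene length and the chance of holding a peak are tied by the rule. At the inner bound, a peak 1002 bp inside Tia1 (score 120.63) was in and one 998 bp from the start of Ddx5 (score 87.22) was out. At the outer bound, a peak 9996 bp from the start of Sort1 (score 366.52) was in and one 10005 bp from the start of Cad (score 59.01) was out.

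Scores were higher than at gene starts and close to those elsewhere in genes. The median score was 103.6 (95% interval 99.69 to 108.99), against 85.54 (83.82 to 87.26) within 1 kb of a 5′ end and 98.98 (97.03 to 101.28) deep inside genes. Peaks between genes at 1 to 10 kb had a median of 104.5. The intervals of medians treat the peaks of 1 library as separate draws and do not measure spread between libraries. Peaks with a score of at least 100 made up 52.0% (49.7 to 54.3%) of the intragenic peaks at 1 to 10 kb and 38.5% (36.6 to 40.3%) of those at gene starts. A score of at least 500 was reached by 77 of them, or 4.18% (3.31 to 5.2%), and by 2.35% (1.81 to 2.99%) at gene starts. Within the band the median was highest at 2 to 3 kb, at 123.6, and lowest at 8 to 9 kb, at 96.66. Width had a median of 185 bp and ran from 56 to 1404 bp.

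**Figure D2:**
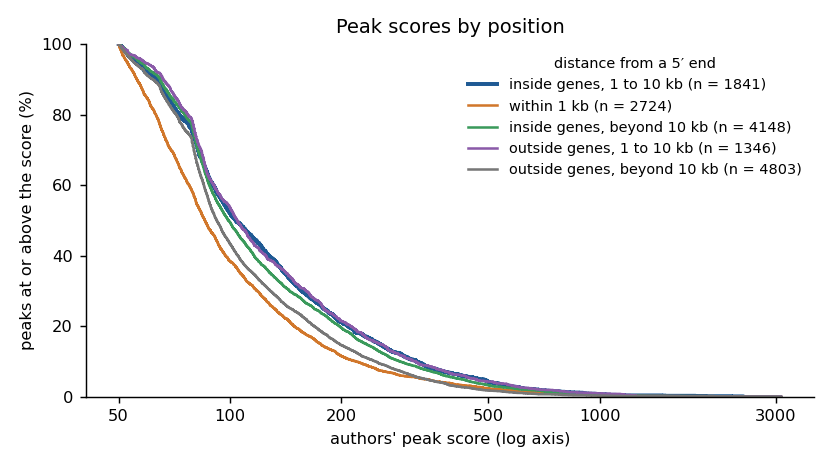
The share of peaks (%) at or above each value of the authors' score, on a log axis, with 1 line per position class. At a score of 100 the intragenic peaks at 1 to 10 kb stand at 52.0% and the peaks within 1 kb of a 5′ end at 38.5%.

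Among the 15 peaks of highest score, 11 lay inside the gene of the nearest start. They spanned scores from 971 to 2448 and widths from 294 to 1201 bp. The highest was 6078 bp inside Zfp113, which encodes a zinc finger protein, at chr5:138590294-138591494 with a score of 2447.68. The next was 3386 bp inside Rcan3, a member of the calcineurin regulator family, at chr4:134986127-134986638 with a score of 2276.2.

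Other high peaks fell in genes of varied function. Cyba, a membrane subunit of the NADPH oxidase, held one with a score of 1818.45. Thra, the thyroid hormone receptor alpha, held one with a score of 1503.97, 3550 bp inside. Vangl2, a planar cell polarity protein, held one with a score of 1108.56 just past the inner bound, at 1010 bp. Lrrc16b, a regulator of actin filament capping, held one with a score of 1169.41, 6471 bp inside. A peak in Deaf1, a transcription factor, scored 971.17 and was nearest to the start of Tmem80, 9908 bp away. Dstn, an actin-depolymerising protein, held one with a score of 984.08 at 1091 bp. Of the 15 nearest genes 2, Zfp113 and 4632415K11Rik, also had a peak within 1 kb of the start. Among these 15 nearest genes, 13 passed the expression filter and 10 of them had a higher fitted level in null, or 8 without null replicate 3, beside 51.7% of all tested genes. The smallest adjusted p among them was 0.755 by limma. Zfp113 had log2 CPM values of 4.69, 4.71 and 4.83 in wild type and 4.90, 4.69 and 4.66 in null, and the groups overlapped. Thra had 7.44, 7.30 and 7.14 in wild type and 7.48, 7.13 and 7.95 in null, and null replicate 3 was the high one.

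Peaks came in runs at some starts. The 1841 peaks had 1661 nearest genes, called linked genes below, of which 153 had 2 or more peaks. These 153 genes took 333 of the peaks. Ttc34, which encodes a tetratricopeptide repeat protein, held 3 in a row, with scores of 1475.94, 692.63 and 259.46 at 1219, 2063 and 2594 bp. Pcgf6, a Polycomb group protein of a repressive complex that acts on germ cell genes, held 3 at 1149, 1421 and 1774 bp, and a start peak 819 bp inside. Jarid2, a partner of Polycomb repressive complex 2, held 3 at 1177, 4410 and 4965 bp. Hip1r, which links clathrin to actin, held 3 between 3310 and 3913 bp. Another peak of any kind lay within 2 kb of 274 of the 1841 peaks, or 14.9% (13.3 to 16.6%). The share was 15.5% (13.6 to 17.5%) for peaks between genes at 1 to 10 kb, and the intervals overlapped. It was 9.33% deep inside genes and 22.8% at gene starts.

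A start peak accompanied some of them. Of the 1661 nearest genes, 262 (15.8%, 14.1 to 17.6%) had a peak within 1 kb of their own 5′ end, against 12.9% (12.4 to 13.3%) of all table genes. Among genes past the expression filter these shares were 18.8% (16.8 to 21.0%) and 16.0% (15.4 to 16.6%). Where both were present, the intragenic peak had the higher score in 152 of 262 genes, 58.0% (51.8 to 64.1%), with medians of 115.7 and 92.89. Brd2, a bromodomain protein that binds acetylated histones, had the reverse: its start peaks reached 1036.24, at 975 bp, and its 2 intragenic peaks scored 256.18 and 160.74. Mll3, a histone H3 lysine 4 methyltransferase, had an intragenic peak of 493.99 at 1597 bp beside 3 start peaks of 84.55 to 92.31.

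The X chromosome held few. There were 16 peaks in 7.57 Mb, or 2.11 per Mb (1.21 to 3.43), against 10.7 per Mb (10.3 to 11.2) on the autosomes, a ratio of 0.197 (0.112 to 0.32). Deep inside genes the ratio was 0.0746 (0.0417 to 0.123). The sparsest autosome was chromosome 6, at 7.52 per Mb, and the densest chromosome 15, at 13.8. On chromosome Y 0 peaks fell in 0.115 Mb, for which the upper limit is 31.9 per Mb. Diploid male cells carry a single X, and copy number and binding cannot be told apart here.

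**Figure D3:**
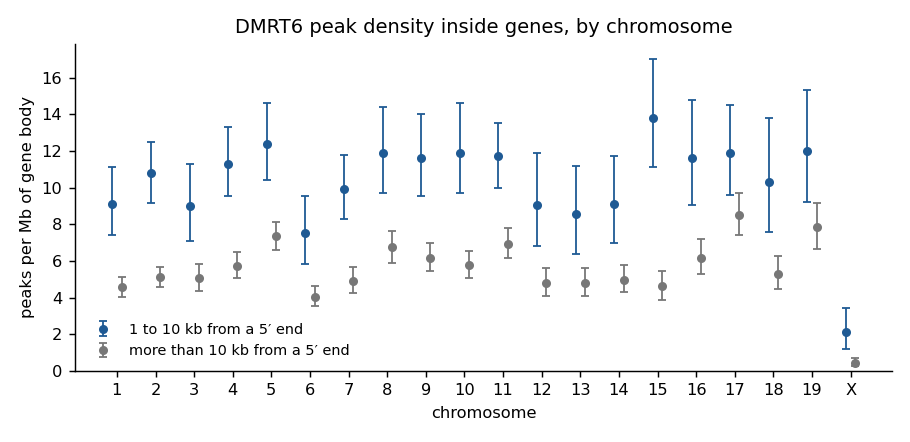
Peaks per Mb of gene body by chromosome, with 95% Poisson intervals as bars, at 1 to 10 kb from a 5′ end and more than 10 kb from one. At 1 to 10 kb, X stands at 2.11 per Mb, below the lowest autosome, chromosome 6, at 7.52.

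All but 1 of the 16 X peaks lay in the gene of the nearest start, and 14 were within 5 kb of it. The highest score was 244.29, in C330007P06Rik. Cenpi, a centromere protein, had 183.2 and Suv39h1, a histone H3 lysine 9 methyltransferase, had 176.03 at 2734 bp. Rps4x, a ribosomal protein, had 2, at 1020 and 1222 bp. Ddx3x, an RNA helicase, Xiap, an inhibitor of cell death, and Hdac8, a histone deacetylase, had 1 each.

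Dmrtb1 itself was among the genes. It is the gene targeted in the null, so its lower level there cannot be read as a response to these peaks. A peak lay 1164 bp inside it, at chr4:107355477-107355865 with a score of 291.34, and a start peak of score 160.83 lay 66 bp upstream. Expression, in log2 CPM, was 3.03, 4.12 and 3.21 in wild type and -0.88, -0.13 and 0.03 in null. The groups did not overlap. The fitted change was -3.78 (SE 0.36), with an adjusted p of 0.0516 by limma, which is just above the threshold of 0.05. It ranged from 0.00678 with median centring to 0.289 over the alternatives other than array weights, whose estimation stopped before it converged and which gave 7.74e-05. Without null replicate 3 it was 0.0182.

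Of the spermatogonial genes, 2 of 20 (10.0%) of the undifferentiated list and 1 of 20 (5.0%) of the differentiating list were linked to an intragenic peak, beside 7.3% of all table genes. In the undifferentiated list, Cdh1, the adhesion molecule E-cadherin, and Neurog3, a transcription factor of early progenitors, were nearest to one. Neurog3 was nearest to 2, inside the opposite-strand gene 2010107G23Rik, 4232 bp upstream (score 575.5) and 3258 bp downstream (160.67). The wild-type libraries had log2 CPM values of 1.90, 2.33 and 2.29 and the null libraries 2.61, 2.74 and 2.98, without overlap, for a change of 0.60 (SE 0.20; adjusted p = 0.755 by limma). The Neurog3 change was 0.50 without null replicate 3. Cdh1 changed by 0.00 (SE 0.28; adjusted p = 0.998 by limma), or -0.01 without null replicate 3, and its groups overlapped. Lin28a, an RNA-binding protein of undifferentiated cells, held a peak whose nearest start was that of Dhdds. In the differentiating list the linked gene was Dmrtb1.

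Of 30 genes of meiotic entry and prophase 0 were nearest to an intragenic peak, which allows a share of up to 10.0%, above the 7.3% of all table genes, and 7 had a start peak. The spermatocyte and spermatid regulators had 2 of 23, Rfx2, a transcription factor of spermatid development, and Hspa1l, a testis heat shock protein. The piRNA pathway, which silences transposons in germ cells, had 3 of 18. Tdrd1 and Tdrd7 are tudor domain proteins of germ granules, with peaks 2775 and 7344 bp inside. Pld6, a mitochondrial protein of piRNA processing, was nearest to a peak in Flcn, 9091 bp upstream.

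Of 59 table entries for chromatin regulators, the longest list, 10 (16.9%) were linked to an intragenic peak. The share was 16.7% in the piRNA list, 15.4% in the Wnt list and 7.3% over all table genes. All 59 entries passed the expression filter, with a median wild-type log2 CPM of 6.5. With tested genes in 5 equal groups, the share was 9.18% in the most highly expressed group, among genes with body in the band. By length, it was 10.1% in the longest group. The 10 were Brd2, Dnmt3l, Kdm3a, Kdm4b, Kdm5b, Kdm6b, Mll3, Myst4, Smarca4 and Suv39h1. Dnmt3l, the cofactor of germline DNA methylation, was named by a peak of 902.81 inside its neighbour Aire, 4657 bp upstream. A peak of 84.05 inside Dnmt3l was in turn nearest to Aire, 5124 bp upstream. Kdm6b, a histone H3 lysine 27 demethylase, had its peak 1973 bp inside, with a score of 160.39.

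These 10 had a fitted level above wild type in 10 of 10, Kdm3a by 0.00 after rounding, and 0 passed the test. The median change was 0.29, and 0.10 without null replicate 3, with 10 of 10 above 0 in both. In the whole chromatin list 47 of 59 were above wild type, with medians of 0.21 and 0.07, and of all tested genes 51.7% were above. Brd2 had 7.54, 7.68 and 7.49 in wild type and 7.79, 7.62 and 8.51 in null. Null replicate 3 was the highest of the 6, and null replicate 2 was inside the wild-type range.

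Retinoic acid starts spermatogonial differentiation, and 3 of 23 genes of that pathway were nearest to a peak. Ncor1, a corepressor of nuclear receptors, was nearest to one of 421.04 in Pigl, 6663 bp upstream. Ncor1 had log2 CPM values of 7.97, 7.98 and 8.0 in wild type against 8.12, 8.06 and 8.17 in null, without overlap. The change was 0.14 (SE 0.08; adjusted p = 0.755 by limma), or 0.11 without null replicate 3. In the whole list 14 of 21 tested genes were above wild type, with a median change of 0.20, or 0.07 without null replicate 3. Rxrg, a retinoid X receptor, held a peak of 85.54, 5544 bp inside, and was below the expression filter.

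In the signalling lists, TGF-beta and BMP signalling had 3 of 32 genes linked (9.38%; Acvr1, Bmp6 and Tgfb3), and Wnt signalling 4 of 26 (15.4%; Ctnnb1, Lrp6, Rnf43 and Tcf7l2), beside 7.3% of all table genes. Rnf43, a ubiquitin ligase that limits Wnt receptors, had 2.14, 1.73 and 1.09 in wild type and 2.34, 2.36 and 2.39 in null. The groups did not overlap, and the change was 0.71 (SE 0.28; adjusted p = 0.755 by limma), or 0.69 without null replicate 3. The other Wnt genes differed by less: Lrp6, a Wnt coreceptor, by 0.23, Tcf7l2, a transcription factor of the pathway, by 0.13, and Ctnnb1, which encodes beta-catenin, by 0.08. Without null replicate 3 these values were 0.09, -0.09 and 0.05. In the whole Wnt list 24 of 26 genes were above wild type. The median change was 0.30 over that list and 0.18 over the 4 linked genes, and both were 0.07 without null replicate 3. Gata4, a transcription factor of Sertoli cells, Pdgfrb, a receptor of stromal cells, and Flt1, a receptor of endothelial cells, were the 1 gene each of their lists. The Leydig, macrophage and red blood cell lists had 0 of 13, 0 of 13 and 0 of 6, which allows shares of up to 23.1%, 23.1% and 50.0%, so a share below that of all genes was not detectable in them.

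Density was higher where the nearest gene had a higher level at P8, over a limited range. Tested genes were put into 5 equal groups by mean wild-type log2 CPM, which is not divided by gene length. Gene body in the band was counted for the gene of its nearest start, with or without a peak. Per Mb of it, the lowest group held 9.22 peaks (8.07 to 10.5) and the highest 12.3 (11 to 13.7). The ratio was 1.33 (1.12 to 1.59). Genes below the expression filter held 7.65 (6.88 to 8.49). The 3 groups between held 11.5, 11.6 and 11.9, and these intervals overlapped the highest group. Gene body beyond 10 kb also held fewer peaks in the lowest group, at 4.72 per Mb (4.34 to 5.11), than in the highest, at 5.8 (5.35 to 6.28). The groups between held 5.63, 6.18 and 5.83 there, and genes below the filter 4.78. The share of genes with a start peak ran from 4.42% below the filter to 24.6% in the highest group. For peaks inside the gene of the nearest start alone, the ratio of highest to lowest was 1.61.

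**Figure D4:**
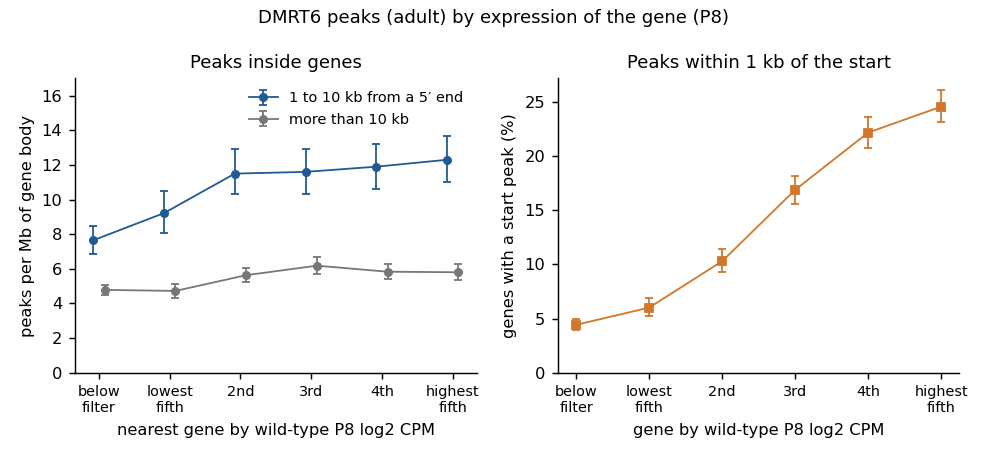
Left, intragenic peaks per Mb at 1 to 10 kb and beyond 10 kb against the wild-type P8 level of the nearest gene, with 95% Poisson intervals. Right, the share of genes with a peak within 1 kb of the 5′ end, by the same groups. The left panel runs from 7.65 to 12.3 per Mb at 1 to 10 kb, the right from 4.42 to 24.6%.

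No linked gene passed the threshold between null and wild type. Of 1661 linked genes, 1337 passed the filter and 324 did not. The limma test called 0 of the 1337 at an adjusted p of 0.05, where 0.00601% of all 16634 tested genes were called. At an unadjusted p of 0.05 there were 51 (34 higher and 17 lower in null), where 3.47% of all were past it, 1.63% higher and 1.85% lower. With voom on the recovered reads 48 were past an unadjusted p of 0.05 and 0 were called. Null and wild-type libraries did not overlap for 150 of the 1337 (97 above and 53 below), or 11.2%. Over all 16634 tested genes the share was 11.1% (841 above and 1002 below). A change of at least 1 log2 unit was seen in 6 of them, where 0.517% of all reached it.

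More linked genes had a higher than a lower fitted level in null, by small amounts. Of the 1337, 863 (64.5%) had a fitted level above wild type against 51.7% of all tested genes, with a median change of 0.09 against 0.01. By library, the median over linked genes was 0.06, -0.00 and 0.17 above the wild-type mean in null replicates 1, 2 and 3. Without null replicate 3, 782 (58.5%) were above and the median was 0.02, against 51.1% and 0.00 of all. Genes with 2 or more intragenic peaks numbered 126 and 97 (77.0%) were above, with a median of 0.16. Without null replicate 3 that was 80 (63.5%) and 0.04. Linked genes with a start peak too numbered 252, of which 72.6% were above, with a median of 0.10, and without null replicate 3 these values were 69.4% and 0.05. Under quantile normalization the median was 0.05 against -0.03 for all, and under median centring 0.04 against -0.04.

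Linked genes were longer, with a median of 27.8 kb against 19.0 kb over all tested genes, and the change varied with length. With tested genes in 5 equal groups by length, in the longest the median change was 0.14 for linked genes and 0.07 for all, and in the shortest it was -0.01 and -0.10. Without null replicate 3 these were 0.05 and 0.03, and 0.00 and -0.03. Null replicate 3 stood 0.07 above the other null libraries in the longest group, and the median difference was -0.18 in the shortest. Blood cell markers had lower fitted levels in null, with 0 called: 13 of 13 macrophage and leukocyte markers and 5 of 5 tested red blood cell markers had a fitted level below wild type. The summed red blood cell level was 1480 to 1770 CPM in wild type and 702 to 1260 in null. The summed macrophage level was 252 to 377 CPM and 205 to 286 CPM. Their part in the result was not tested.

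The linked genes of smallest unadjusted p, Dmrtb1 included, did not pass the threshold after adjustment. Srrm4, a splicing factor of neural exons, had 1.64, 1.46 and 1.57 in wild type and 2.33, 2.09 and 2.67 in null, for a change of 0.81 (SE 0.22). Hip1r, which holds 3 intragenic peaks, had 3.92, 3.97 and 3.76 against 4.31, 4.45 and 5.37, for a change of 0.83 (SE 0.26), which was 0.50 without null replicate 3. In both the groups did not overlap. Gmpr, an enzyme that recycles guanine nucleotides, had 4.69, 4.39 and 4.48 against 4.04, 4.16 and 4.02, for a change of -0.45 (SE 0.14). Its groups did not overlap either. Each of these 3 had an adjusted p of 0.755 by limma. Car3, a carbonic anhydrase, had 6.76, 3.73 and 5.48 against 1.78, 2.82 and 4.14, for a change of -2.41 (SE 0.79; adjusted p = 0.755 by limma), and its groups overlapped.

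**Figure D5:**
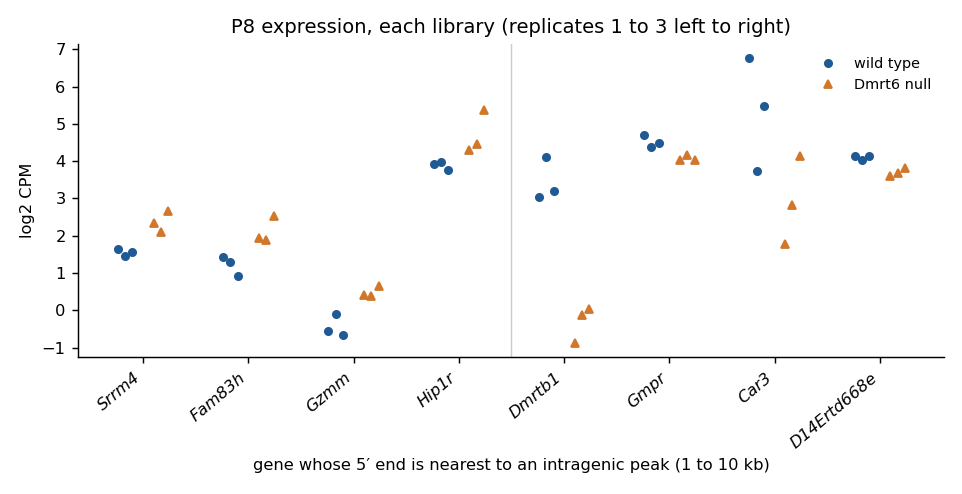
Log2 CPM in each P8 library, replicates 1 to 3 left to right, wild type as circles and Dmrt6 null as triangles, for the 4 linked genes of smallest unadjusted p in each direction, loci known only by a clone or model number passed over. Dmrtb1 lies between 3.03 and 4.12 in wild type and between -0.88 and 0.03 in null, and the groups of Car3 overlap.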

How the data were processed

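Expression was deposited by the authors as log2 CPM (reads scaled to library size, on a log2 scale) for 22744 Ensembl genes with mm9 coordinates. Per the submitters' processing notes the tools were edgeR, Picard, Bowtie2 and STAR 2.3.0e, with the build mm9 and no roles given, and the read counter, annotation release and strand use are not stated. Whole reads came back from the log2 steps for 100% of values (tolerance 1e-06), 23.8 to 29.0 M per library, so that 0 reads allows up to 0.103 to 0.126 CPM. The peak list was deposited by the authors, with a score per peak whose scale is not stated.

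Peak middles, 5′ ends and gene bodies came from the table, 1-based. Body positions were counted exactly by distance to the nearest 5′ end, over all genes of the table, and exons, introns and alternative starts were not distinguished. Densities have exact Poisson intervals, shares exact Clopper-Pearson intervals and density ratios exact binomial intervals, all at 95% and for counting error only. Median scores have 95% intervals from binomial ranks of the scores, over the peaks of 1 library. A linked gene is that of the nearest 5′ end.

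Null and wild type were compared with limma-trend (limma 3.58.1, R 4.3.3), two-sided, over genes with a mean log2 CPM of at least 0 (16634 of 22744), with no pseudocount beyond the authors' own, Benjamini-Hochberg adjustment and a threshold of 0.05. All changes are null minus wild type in log2 CPM. An exact permutation test of 3 against 3 libraries cannot go below 0.1. Other calculations used Python 3.11.15, pandas 2.3.3, numpy 2.4.6 and scipy 1.17.1, and the density and test code was checked on simulated data. Start windows were matched by Entrez gene ID, for 13391 table genes.

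Named genes were Dmrtb1, the nearest and host genes of the 15 highest peaks, the 10 nearest genes with the most peaks, up to 4 genes per list, and up to 6 linked genes per direction by unadjusted p (4 are plotted). Some genes that the rule names are not reported here. The X-linked genes, the peaks at the distance bounds, Gm15683, Aire, Kdm6b and the other chromatin regulators past the first 4 were named outside that rule, after their values were seen. Peaks, gene lists and tests were chosen with earlier results of these data known. Alternatives were other normalizations, filters, weights, links, bounds and scores, a replicate block and each library left out; the splits by gene length and the counts without null replicate 3 were added after the data were seen.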

Additional observations from a re-analysis of the deposited data

How the results depend on the processing

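The number of linked genes called by limma was 0 in the main analysis. It was 1 (Dmrtb1) with quantile normalization, with median centring and with no expression filter. Dmrtb1 is the gene targeted in the null, so its call does not describe a response of a linked gene. Array weights gave 8, among 136 of all genes, but the estimation of the weights stopped before it converged. Leaving out 1 library at a time gave 0 to 1, the 1 being Dmrtb1 without null replicate 3. With the replicate number as a block 1 was called, again Dmrtb1, at an adjusted p of 0.0269. The labels state no pairing. Correlations of same-numbered deviations were -0.09, -0.22 and -0.04, and those of different numbers ran from -0.14 to 0.23. With 3 libraries per group, these values cannot decide whether the libraries were paired. The median change of linked genes ran from 0.02 to 0.12 over libraries left out, and the change of Dmrtb1 from -4.0 to -3.45. The ratio of peak density between the highest and lowest expression groups was 1.61 for peaks inside the gene of the nearest start and 1.33 for all. An outer bound of 5 kb left 1071 peaks and a score of at least 100 left 958. In the other alternatives run, the ratio of density between 1 to 2 kb and 9 to 10 kb was 2.18 and 2.2, and the median score 102.5 to 107.0. The causes of these differences were not tested, apart from the fewer peaks or libraries that an alternative holds. With 1 ChIP library, its unknown depth limits every peak value.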

Other observations

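One start had 6 intragenic peaks, the most of any gene. It is that of Gm15683, and all 6 lie inside its neighbour Mrpl48, a mitochondrial ribosomal protein gene, on chromosome 7. Those 4 that lie upstream are at 5964, 5635, 5078 and 4792 bp, with scores of 60.7, 196, 106 and 225. The pair downstream is at 2574 and 2834 bp, with scores of 93.4 and 87.2.

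Of 41 mitotic cell cycle genes 2 (4.88%), Cdkn1a and Plk1, were nearest to an intragenic peak, beside 7.3% of all table genes. Genes of that list also held peaks whose nearest start belonged to another gene. Top2a, the topoisomerase of dividing cells, held one with a score of 89.75. Rb1, the retinoblastoma protein, held one with a score of 86.33, 8159 bp upstream of the start of Lpar6. Cdkn1a, a cyclin-dependent kinase inhibitor, held its own, 6869 bp inside with a score of 97.65, and so did Plk1, a mitotic kinase, 4351 bp inside with a score of 70.61.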
